A study of Homo sapiens with 36 samples.

Results

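EIF4B is an RNA-binding initiation factor that stimulates the EIF4A helicase, which unwinds the 5' leader of an mRNA so that the small ribosomal subunit can load at the cap and scan to the start codon. EIF4A works within eIF4F, together with the cap-binding protein EIF4E and the scaffold EIF4G, and EIF4B is phosphorylated by kinases of the mTOR and growth factor pathways. Binding of EIF4B to RNA was mapped here by enhanced crosslinking and immunoprecipitation (eCLIP), in which RNA fragments recovered with a protein are sequenced beside fragments of the unselected lysate, the input.

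The members are all 68716 windows of the EIF4B list, out of 788098 windows in the lists of 9 proteins. Each window is a stretch of at most 100 nt of annotated RNA that the authors called enriched in the EIF4B IP over the EIF4B input in 2 of 2 replicates. The groups are EIF4B IP and EIF4B input, with 2 libraries each, from untreated HEK293T cells, an embryonic kidney line used as the model in all libraries. The labels do not say whether EIF4B was recovered through its own antibody or a V5 tag, or whether replicates were separate cultures. The deposited IP and input reads are sums over the replicates, so no value per library is given below, and the replicates are shown through the lower and the higher of the 2 log2 enrichments that the authors deposited for each window, so that "lower replicate" is chosen window by window and is not 1 library throughout. No test between conditions was possible with these tables, and all comparisons below are descriptions of listed windows.

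The list held 9404592 IP reads and 1135039 input reads and covered 5757899 nt. A window had a median of 5 input reads, and 7.27% of windows had none. The gap between the higher and the lower replicate had a median of 0.73 on the log2 scale and was below 2.17 in 90% of windows, which is the scale on which differences between single windows can be read. Of 9 genes chosen as typical of HEK293 cells, 7 had EIF4B windows and NEFM and PAX2 had none. Of 10 genes chosen for other cell types, TTN-AS1 alone had one, and none of the 9 lists named the others, among them ALB, HBB and PTPRC.

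The stretches that best show where EIF4B windows lay are the first 30 bases of mRNAs, taken where the annotated start and these bases lie wholly inside a 5' UTR window with at least 5 input reads. They are given as DNA from the RefSeq start table (GRCh38.p14), 5' to 3', with the genomic position after the name. The first set holds the starts with the highest lower-replicate enrichment as deposited, all in replication-dependent histone mRNAs, and the second the starts with the highest ratio of IP to input reads. In both sets capitals mark runs of at least 3 G or C bases.
H2BC18, chr1:149812341-149812370, minus strand: agttCGGattacttctttaagtctcttttc
H2AC7, chr6:26199264-26199293, minus strand: acttttacatttttgtcttcattgcttaac
H4C4, chr6:26189083-26189112, minus strand: gtattGCGttacagatttaacagctgtggt
H2AC20, chr1:149886918-149886947, plus strand: aatcttattttgttGCGaggttctgaGCGt
BCL7C, chr16:30894048-30894077, minus strand: gagagaGGGCGCGGCCaactccaGGGGGGa
TRAF4, chr17:28744011-28744040, plus strand: agtCGGCGCCGCCCGGaGCCGGGaGCGCCG
SRM, chr1:11059989-11060018, minus strand: gctggtCCCGttgtgctGCGGCGCCGCGCG
MAPK1IP1L, chr14:55051647-55051676, plus strand: gcttcctgttCCGGCGCCaggaggaGCCGC

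The third set holds ribosomal protein mRNAs, chosen as the highest by deposited enrichment among those that open with a terminal oligopyrimidine (TOP) tract, here a C followed by at least 4 pyrimidines. Such tracts are the known mark of mRNAs whose translation follows mTOR activity. Capitals mark the tract.
RPL12, chr9:127451377-127451406, minus strand: CCTCTCggctttcggctcggaggaggccaa
RPL24, chr3:101686689-101686718, minus strand: CTTTCTTTTCgccatcttttgtctttccgt
RPL31, chr2:101002289-101002318, plus strand: CTTCCTTTCCaacttggacgctgcagagtg
RPL34, chr4:108620576-108620605, plus strand: CCTCTTCCggggacgttgtctgcaggtatg

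The windows that hold these starts differed in composition and in reads. The H2BC18 window held 715 IP and 15 input reads, with a lower log2 enrichment of 7.45 and a higher one of 7.76, and the 50 bases after its start were 34% G or C. The BCL7C window held 1269 IP and 7 input reads, with enrichments of 6.35 and 6.75, and its start was 78% G or C. The RPL12 window held 1591 IP and 15 input reads (5.82 and 6.03). By the deposited value the histone window ranked above the other 2, whereas by pooled reads it ranked below them, with log2 ratios of 5.48 for H2BC18, 7.31 for BCL7C and 6.64 for RPL12, where the pooled ratio is log2 of IP reads + 1 over input reads + 1.

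The 5' UTR was the largest class of EIF4B windows as listed, and it held a larger share of IP reads than of windows. The 5' UTR class held 30.6% of windows (exact binomial 95% interval 30.2 to 30.9), 49.2% of IP reads and 12.4% of input reads. Small RNA exons, with only 48 windows, held 41.4% of input reads and 8.44% of IP reads. They lower the input share of every other class more than its IP share, so the 2 shares overstate the contrast. Start codon windows held 10.3% of windows (10.1 to 10.6), 13.8% of IP reads and 5.25% of input reads. Coding sequence held about as many windows as the 5' UTR, 30.3% (29.9 to 30.6), with 14.8% of IP reads and 16.8% of input reads. The intervals cover counting error only, and neighbouring windows of a gene are not independent.

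Read density showed the same order. The 5' UTR windows covered 1622022 nt with 285 IP and 8.67 input reads per 100 nt, start codon windows 613640 nt with 212 IP and 9.71 input reads, and coding windows 1659675 nt with 83.9 IP and 11.5 input reads. Input density was thus similar in the 3 classes, while IP density was highest in the 5' UTR. Windows of 3' UTRs covered 479419 nt with 48.2 IP and 10.4 input reads per 100 nt, and intron windows 970283 nt with 51.6 and 7.38. Stop codon windows, 2.00% of the list, resembled coding windows, with 77.1 IP and 11.7 input reads per 100 nt.

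Listed windows had lower enrichment further along the mRNA, by the lower and by the higher value of each window. As medians of the lower and the higher value, log2 enrichment was 3.69 and 4.72 for 5' UTR windows, 3.29 and 4.32 for start codon windows, and 2.39 and 3.31 for coding windows. It was 2.34 and 3.19 at stop codons and 2.16 and 2.94 in 3' UTRs. Intron windows had 2.46 and 3.48, close to coding windows. With the q-value ceiling set to 0.05, 88.7% of 5' UTR windows, 86.4% of start codon windows, 60.4% of coding windows and 49.5% of 3' UTR windows remained.

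**Figure D1:**
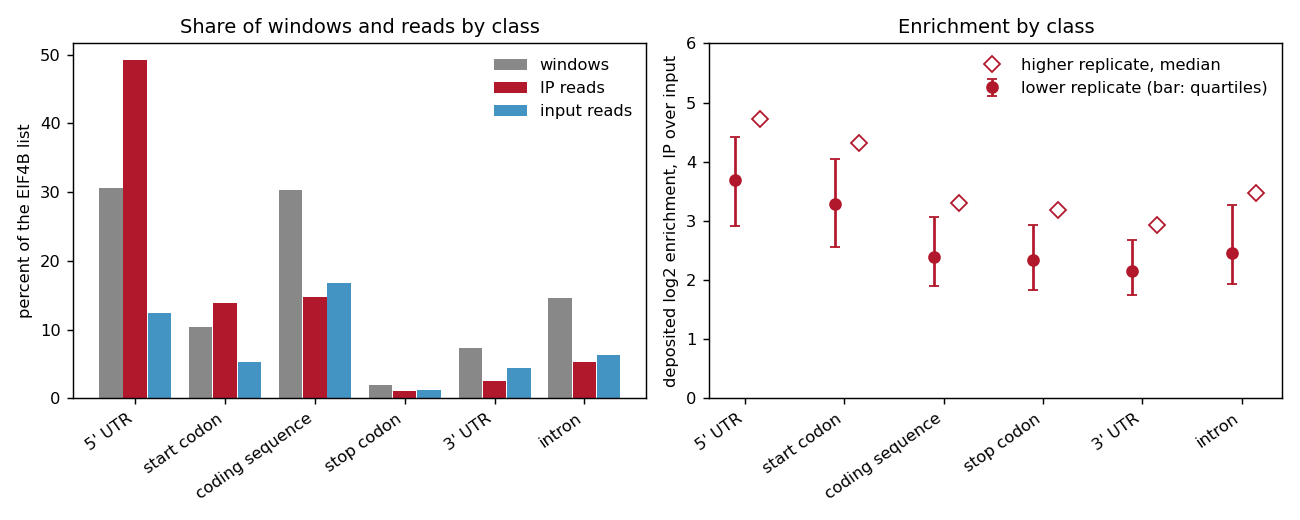
Left, the share of the EIF4B list held by each class of window, counted as windows, IP reads and input reads (percent of the list). Right, the deposited log2 enrichment of IP over input by class, with the median and quartiles of the lower replicate as circles and bars and the median of the higher replicate as diamonds. The 5' UTR holds 49.2% of IP reads and 12.4% of input reads, and its enrichment is above that of every other class drawn. Small RNA exons, not drawn, hold 41.4% of input reads and 8.44% of IP reads.

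The same order held within genes, where both classes come from transcripts of 1 gene. Of 5670 genes with windows in both, the 5' UTR had the higher median lower-replicate enrichment in 89.2% against coding sequence, with a median difference of 1.30 (quartiles 0.60 and 1.98). Of 6249 genes with both a 5' UTR and a start codon window, the 5' UTR was higher in 69.4%, by a median of 0.58 (quartiles -0.18 and 1.28), a difference smaller than the median gap between replicates. Start codon windows exceeded coding windows in 78.2% of 4944 genes, by a median of 0.82. Against 3' UTR windows the 5' UTR was higher in 94.4% of 1814 genes, by 1.76, and against intron windows in 79.8% of 2021 genes, by 1.01.

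Across genes, binding at the 5' end was the common pattern. The list named 10082 genes, with a median of 5 windows each, and 8638 of them (85.7%) had a 5' UTR window. Genes are counted here by name as deposited, and a joint name of overlapping genes, as in 1569 windows, counts as its own. A gene with its 5' window under a joint name can thus count as lacking one. Counting start codons too, 9069 genes (89.95%) had a window at the 5' end, and 2459 genes (24.4%) had windows there and in no other class. Windows in coding sequence without one at the 5' end were found in 173 genes (1.72%), 3' UTR windows without one in 64 genes and intron windows alone in 164. Among protein-coding genes named in any of the 9 lists, 94.2% had an EIF4B window of some class and 90.9% had one in the 5' UTR or at the start codon, and this is the background for the gene groups described further on.

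The position of 5' UTR windows was read against the nearest RefSeq start of the same gene, in genomic distance, so introns in the leader count as distance. Of 21013 such windows, 17124 (81.5%) matched a start by gene symbol and strand. A start lay inside 6324 of them (36.9%), in 6161 genes, and 48.3% were centred within 100 nt of one. These shares were not highest for EIF4B: windows holding a start made up 43.2% in the MBNL2 list, 27.3% in CPSF6, 31.8% in RNPS1, 50% of 298 matched windows in CPSF5 and 62.1% of 66 in LGALS3. Enrichment was highest close to the start: windows centred 0 to 50 nt downstream had a median of 4.04 (quartiles 3.25 and 4.76) in the lower replicate, against 3.63 at 50 to 100 nt, 3.61 at 100 to 200 nt, 3.44 at 200 to 400 nt and 3.36 beyond 800 nt. The quartile ranges of these bins overlap. Median IP reads per window stayed near 120 from 0 to 400 nt, with 121 at 0 to 50 nt and 120 at 200 to 400 nt, and median input reads were 3 and 5.

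Whether other lists shared this slope depended on the scale. On the deposited scale EIF4B had 4.04 at 0 to 50 nt and 3.36 beyond 800 nt, while MBNL2 had 2.12 and 2.36, CPSF6 2.17 and 2.48, and RNPS1 2.44 and 3.05, so the other 3 lists were higher far from the start. As pooled log2 ratios all 4 lists were higher near the start: EIF4B had 4.93 and 3.32, MBNL2 3.0 and 2.15, CPSF6 3.20 and 2.50, and RNPS1 3.94 and 3.25. GC moved with distance, from 70.3% at 0 to 50 nt to 53.7% beyond 800 nt in EIF4B windows, and its part in the slope was not tested. These medians were not tested against each other, and a list shows listed windows only, not coverage.

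**Figure D2:**
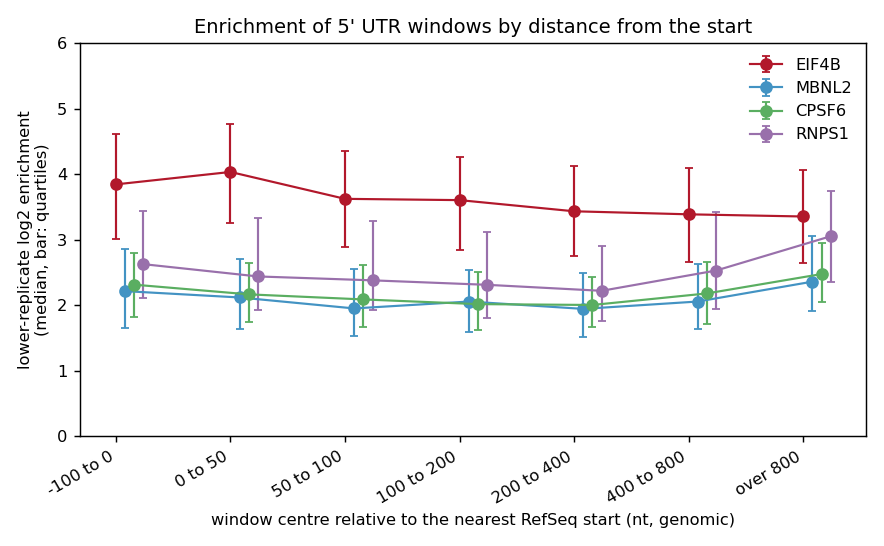
Lower-replicate log2 enrichment of 5' UTR windows (median, bars for quartiles) by distance of the window centre from the nearest RefSeq start in nt, for the EIF4B, MBNL2, CPSF6 and RNPS1 lists. EIF4B is highest at 0 to 50 nt, with a median of 4.04, while the other lists are highest beyond 800 nt on this deposited scale, though not as pooled ratios.

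GC content bears on all these values. The deposited enrichment was compared with the log2 ratio of the deposited IP and input reads in the 951 EIF4B windows with at least 50 input reads. The 2 differed by an offset that was nearly constant within each GC bin of the table (SD 0.027 to 0.046) and changed from bin to bin: it was 2.93 where GC was at most 29%, 1.34 between 42% and 45%, 0.52 between 53% and 58%, and -0.76 above 58%. The deposited value is thus the read ratio relative to a level that rises with GC, and equal deposited enrichments in the lowest and the highest bin stand for read ratios that differ 12.8-fold. The same span was 38.5-fold in the MBNL2 list, 11.2-fold for RNPS1, 4.86-fold for CPSF6, 1.13-fold for GRB2 and 1.11-fold for CPSF5. This span compares the end bins only, and the GRB2 and CPSF5 offsets turned in between. For CPSF5 the offset was 0.19 in the lowest bin, 0.98 between 47.9% and 52% GC and 0.04 in the highest. For GRB2 it was -0.09 in the lowest bin, -0.54 between 35.4% and 38% GC and 0.08 in the highest.

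**Figure D3:**
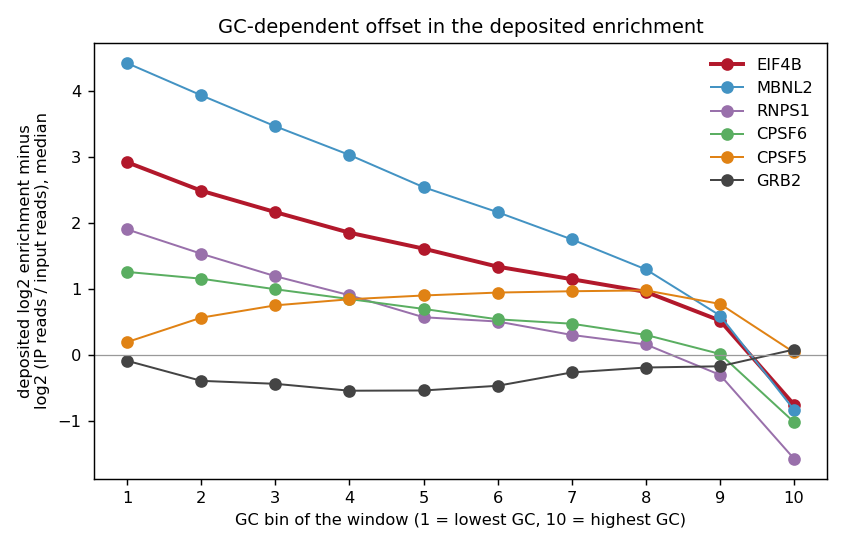
Median difference between the deposited log2 enrichment and the log2 ratio of IP to input reads, in windows with at least 50 input reads, for the 10 GC bins of each table (1 is the lowest GC, 10 the highest), in 6 of the 9 lists. For EIF4B it declines to -0.76 in the highest bin, against 2.93 in the lowest bin.

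EIF4B windows were GC-rich, most of all in leaders. Median GC was 70.5% (quartiles 62.0 and 77.2) in 5' UTR windows, 63.8% at start codons, 56.0% in coding sequence, 55.0% in 3' UTRs and 58% in introns. The MBNL2 list had 72.6% in its 5' UTR windows, CPSF6 61.4% and RNPS1 61%. The highest GC bin, above 58%, held 82.6% of EIF4B 5' UTR windows and 41.7% of coding windows. Measured as pooled log2 ratio rather than deposited enrichment, the medians were 4.54 for the 5' UTR and 2.60 for coding sequence, a difference of 1.94 on the log2 scale, against 1.30 with the deposited value.

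At matched GC the 5' UTR stayed above the other classes compared. Between 58% and 65% GC the median pooled log2 ratio was 4.35 in 5' UTRs, 4.0 at start codons, 3.30 in coding sequence, 3.50 in introns and 3.01 in 3' UTRs. Over 6 GC strata the 5' UTR exceeded coding sequence by 1.05 to 1.43, introns by 0.85 to 1.38, 3' UTRs by 1.34 to 1.71 and start codons by 0.15 to 0.40. Inside each class the pooled ratio rose with GC, in 5' UTRs to 5.0 above 80% GC, against 2.66 at 50% or less. Spearman's rho between GC and the pooled ratio was 0.43 over the 21013 5' UTR windows and 0.71 over the 20802 coding windows, against 0.14 and 0.06 for the deposited value. All these windows share the same 4 libraries, and no p is given.

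**Figure D4:**
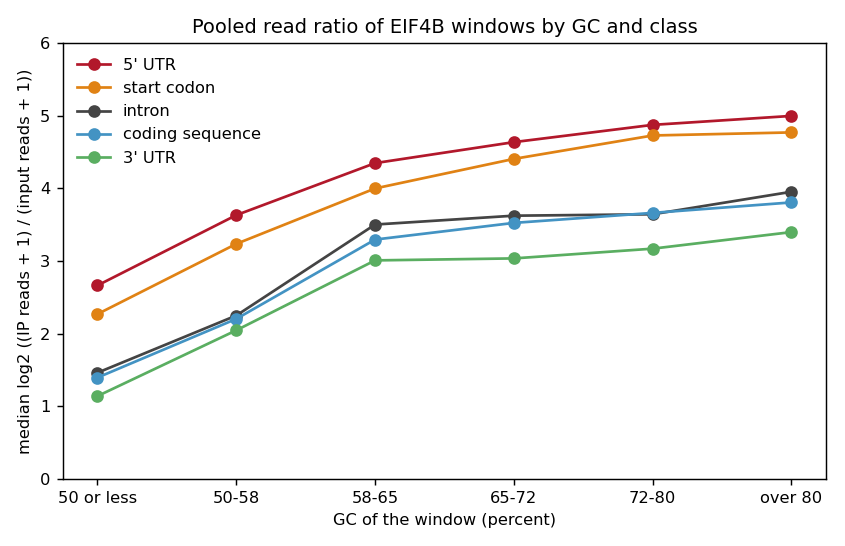
Median pooled log2 ratio, log2 of IP reads + 1 over input reads + 1, of EIF4B windows in 6 strata of GC (percent) for 5 classes. The 5' UTR line lies above every other class in each stratum, and all lines rise with GC, from 2.66 to 5.0 in the 5' UTR.

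Starts inside EIF4B windows were GC-rich as well. Of 11803 RefSeq starts of protein-coding genes named in any list, 6410 lay in an EIF4B 5' UTR window. The 50 bases after the start had a median GC of 70% at these and 62% at the 5393 others, which include unused alternative starts. The share of starts inside a window was 13.7% at GC of up to 50%, 43.1% from 50 to 60%, 60.3% from 60 to 70%, 67.4% from 70 to 80% and 69.7% above 80%.

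Predicted folding was close at matched GC. Over all starts the minimum free energy of the 50 bases, by RNAfold, had a median of -15.9 kcal/mol inside EIF4B windows and -13.2 outside. Within strata of GC the medians were -8.15 and -7.5 (up to 50% GC), -11.5 and -11.2 (50 to 60%), -15.0 and -14.7 (60 to 70%), -19.1 and -19.1 (70 to 80%) and -22.9 and -23.8 (above 80%). Without matching, the median was -16.7 among the 1282 starts with the highest enrichment, whose median GC was 70%, and -15.3 among the 1282 with the lowest, at 66%. The 50 bases are only the beginning of most leaders, and longer structures were not analysed.

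GGCGGCGGC, a repeat reported in leaders that depend on EIF4A, was counted in the mRNA sense. It was found in 5.29% of starts inside EIF4B windows, in 2.08% of those outside and in 3.82% of all 11803. Its complement GCCGCCGCC was found in 2.23%, 0.85% and 1.60%. At least 4 runs of GG spaced by 1 to 7 bases, a loose G-quadruplex pattern that can overlap the first motif, were present in 41.95% of starts inside EIF4B windows and 28.4% of those outside. The share of this GG pattern did not rise with enrichment, at 38.8% of the 1282 starts with the highest enrichment and 42.6% of the 1282 with the lowest. The motif shares inside and outside windows were not matched for GC, whose median was 70% inside and 62% outside. The part of GC in these differences was not tested. TOP tracts opened 5.79% of starts inside windows and 4.82% of those outside.

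The strongest single windows, taken among those of at least 20 nt with at least 5 input reads, were in histone leaders. After H2BC13, the leading 5' UTR genes by deposited enrichment were H2BC18, H2AC7, H4C4 and H2AC12, with lower-replicate values of 7.45, 7.24, 6.94 and 6.78. All are replication-dependent histone genes, whose mRNAs end in a stem-loop and not in a poly(A) tail. At start codons the leaders included NENF (6.53 and 7.56 in the lower and higher replicate), which encodes the secreted factor neudesin, LAPTM4B (6.44 and 6.65), a lysosomal membrane protein gene, SSR3 (6.20 and 6.45), a subunit of the translocon-associated complex, and H4C3 (6.19 and 7.27). In coding sequence CYB5R3 and ATP5PO led with 5.92 and 5.89, and in 3' UTRs GTPBP3 with 5.78, from 207 IP and 15 input reads.

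Ranked by pooled ratio, a ranking added after the values were seen, other leaders came first. They were BCL7C, TRAF4, an adaptor gene, FHL1, a LIM protein gene, DUS1L, a dihydrouridine synthase gene, and SRM, which encodes spermidine synthase. Their pooled log2 ratios ran from 7.18 (SRM, 2761 IP and 18 input reads) to 7.31 (BCL7C), and their windows were 81.7% to 89.1% G or C. NENF and LAPTM4B led the start codon class on both scales.

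Of all EIF4B windows, 39.5% were in none of the other 8 lists. By class the share was 66.0% in introns, 52.2% in 5' UTRs, 32.0% at start codons and 19.9% in coding sequence. Among 5' UTR and start codon windows in no other list, of at least 20 nt with at least 5 input reads, that of MARCKS was strongest by deposited enrichment. This leader window of a protein kinase C substrate gene (chromosome 6, 113857425 to 113857504) had 218 IP and 8 input reads and enrichments of 6.35 and 7.24. It was followed by SMOC1, a secreted calcium-binding protein (6.0 and 6.79), YIF1A, which acts in transport between endoplasmic reticulum and Golgi (5.93 and 5.95), and OCLN, the tight junction protein occludin (5.93 and 6.29). The start codon window of UQCR11, a complex III subunit, had 5.92 and 6.69, and the leader of CCND2, cyclin D2, 5.89 and 6.07. PCSK1N, CANX, which encodes calnexin, ERO1A, an oxidase of the endoplasmic reticulum, and SLC19A1, the folate carrier, completed the set with lower-replicate values of 5.86, 5.83, 5.78 and 5.71. The MARCKS window was 35% G or C, and the other 5' UTR windows of this set 65.6% to 84.6%. By pooled log2 ratio MARCKS was the lowest of the set, with 4.60. The others ran from 6.57 (SLC19A1) to 7.02 (SMOC1).

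Leader windows shared with MBNL2, CPSF6 or RNPS1, the lists compared here, had higher medians for EIF4B. EIF4B and MBNL2 shared 4604 5' UTR windows, 21.9% of the EIF4B and 96.4% of the MBNL2 windows of that class, with medians of 4.26 for EIF4B and 2.06 for MBNL2. RNPS1 shared 5681, 27% of the EIF4B and 79.6% of the RNPS1 ones, with 3.66 for EIF4B and 2.44 for RNPS1. CPSF6 shared 4589, 21.8% of the EIF4B and 80.7% of the CPSF6 ones, with 3.67 for EIF4B and 2.16 for CPSF6. In coding windows the order was turned for RNPS1 and CPSF6, with 2.26 for EIF4B and 3.0 for RNPS1 in 13350 shared windows, and 2.23 for EIF4B and 2.45 for CPSF6 in 10743, and in the 7424 shared with MBNL2 the medians were 2.43 for EIF4B and 2.30 for MBNL2. The enrichment scale of each list rests on its own GC offsets and depth, and these differences were not tested.

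Long leaders carried runs of windows. SLIT2, a secreted guidance factor, had most 5' UTR windows, 20 over 1911 nt, with 22452 IP and 707 input reads and lower-replicate enrichments from 3.50 to 5.38. NR2F1, an orphan nuclear receptor, had 19, with enrichments from 1.39 to 6.18, and CHPF2, a chondroitin synthesis gene, had 16. EEF1D, an elongation factor subunit, also had 16, but from 0.96 to 3.57. TLE1, a corepressor, and TLNRD1 had 14 each, all above 3.32, while the 14 of BRD2, a bromodomain protein, began at 0.96. ABL1, DCAF16 and GPBP1 had 13 each. Among protein-coding genes, FBRSL1, GSE1, ANKRD11 and UCKL1 had most windows of all classes, and of these windows 195 of 229, 171 of 191, 106 of 139 and 99 of 103 were intronic.

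The mRNAs of the machinery that EIF4B belongs to were listed too, and each gene is given by its highest 5' UTR or start codon window. No minimum of length or input reads was set here or in the groups below. Some of these highest windows therefore had no input read or were a few nt long. In the counts and medians of groups, a window assigned to several genes counts for each of them. Of 15 genes of eIF4F and its partners and regulators, 14 had a 5' UTR or start codon window, EIF4E2 being the exception. Their 49 windows of these classes had a median of 3.41, below the 3.58 of all such windows. The highest was EIF4EBP1, a repressor of EIF4E that mTOR inactivates, with 3343 IP and 33 input reads at its start codon and enrichments of 5.74 and 5.98. The scaffold genes EIF4G1 (5.13 and 5.76), EIF4G2 (4.61 and 4.71) and EIF4G3 (2.69 and 2.78) spanned a wide range, as did the helicases: EIF4A3, which works in the exon junction complex, had 5.04 and 5.08, EIF4A1, the main eIF4F helicase, 3.34 and 4.64, and EIF4A2 1.73 and 4.86, where the replicates were far apart. The cap-binding protein gene EIF4E had 4.85 and 4.99, EIF4EBP2 4.60 and 5.46, and EIF4H, a relative of EIF4B, 4.41 and 6.85. DHX29 had 4.17 and 7.08, PDCD4, an inhibitor of EIF4A, 3.95 and 3.97, and DDX3X 3.67 and 4.29. EIF4B mRNA itself was among the lower ones, with 32 IP and 4 input reads in a single 5' UTR window (3.25 and 3.83).

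Genes upstream of EIF4B were listed in 15 of 16 cases, without RPS6KA2, and their 57 windows at the 5' end had a median of 3.76. PIM2, a kinase that phosphorylates EIF4B, led with 145 IP reads and no input read in its best leader window (6.62 and 7.08). It was followed by MTOR, also with no input read (5.44 and 5.69), MELK (5.38 and 6.04) and PIM1 (5.31 and 6.54). AKT2, PIM3 and AKT1 had lower-replicate values of 5.08, 4.87 and 4.63, PPP2CA, a phosphatase subunit, 4.63, MLST8 4.55, RPTOR 4.42 and PDPK1 4.13. The ribosomal protein kinases were at the low end, with 4.07 for RPS6KA1, 3.80 for RPS6KB2, 3.20 for RPS6KB1 and 2.10 for RPS6KA3.

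Growth and survival mRNAs reported to depend on EIF4B or EIF4A had a window at the 5' end in 18 of 24 cases. Over the 19 members named in any of the 9 lists, the population behind the 90.9%, it was 18 of 19. The members without such a window were BCL2, which had 1 coding window, and BCL2L1, NOTCH1, ETS1, MYB and RUNX1, which were in none of the 9 lists. Their 85 windows at the 5' end had a median lower-replicate enrichment of 3.71, close to the 3.58 of all such windows. The highest were SKP2, a ubiquitin ligase subunit (6.36 and 8.78), CCND3, cyclin D3 (6.20 and 6.57), BIRC5, which encodes survivin (5.64 and 5.78), CDK6 (5.24 and 6.8) and TGFB1 (5.14 and 5.86). ODC1, ornithine decarboxylase, had 5.11 and 5.92, and MYC 4.75 and 5.33 in a start codon window. STAT3 and IGF1R had lower-replicate values of 4.97 and 4.88, CDC25C 4.57, CCND1 4.51 with no input read, VEGFA 4.23, MDM2 4.21, XIAP 3.83, DDX3X 3.67, MCL1 3.09 and FGF2 2.53.

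Other groups of mRNAs had medians above or below the 3.58 of all 5' windows. Replication-dependent histones were highest, with 48 of 48 genes listed and a median of 5.19 over 92 windows, and they were also high in coding sequence, with 3.75 against 2.39 over all coding windows. Their 5' windows held a median of 1254.5 IP and 31.5 input reads, against 94 and 4 over all such windows. Their pooled ratio of 5.34 also exceeded the 4.39 of all genes. These medians were not matched for GC or for input reads, and the part of either was not tested. Histone genes are near-identical copies, and reads can be shared between them, so values of single histone genes are uncertain.

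Nuclear-encoded respiratory chain genes came next, with 75 of 75 listed at the 5' end and a median of 4.57 over 187 windows (pooled ratio 5.16). COX6A1 (7.38 and 8.42) and NDUFA4 (6.76 and 7.47), both of complex IV, and ATP5PB of ATP synthase (6.68 and 8.98) led. NDUFS7 and NDUFA12 of complex I followed, with lower-replicate values of 6.54 and 6.51 from windows with no input read. G1 and mitotic cyclins and CDKs were listed in 19 of 19 cases (median 4.18), led by CCNE1, cyclin E1, with 353 IP reads and 1 input read (6.65 and 7.47). Next were CCND3, CDKN2C, an inhibitor of CDK4 and CDK6 (6.12, no input read), CCND2 and CDK2 (5.53). Chaperones of the HSP70, HSP90 and CCT families were listed in 20 of 20 cases (4.15), led by the chaperonin subunit CCT3 (6.60), HSPA9 (6.14), HSPE1 (5.95), TCP1 (5.40) and CCT5 (5.28). All 32 proteasome genes were listed (4.12), led by PSMC4 (6.30), PSMA6 (6.27), PSMB4 (5.89), PSMB2 (5.75) and PSMD11 (5.72).

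Ribosomal protein genes, the main TOP mRNAs, were listed in 79 of 80 cases, without RPS4Y1, with a median of 4.02 over 226 windows. Their pooled ratio of 4.41 was close to the 4.39 of all genes. RPL24 (6.99), RPS3A (6.44), RPS20 (6.39) and RPS27 (6.34) were among the highest. Of these windows, that of RPS27 had no input read and those of RPL24 and RPS3A had 1 each. The RPL24 and RPS27 windows were only a few nt long. Of 78 ribosomal protein starts in the RefSeq table, 55 lay in a 5' UTR window, against 6410 of all 11803 starts. TOP tracts open 36 of these 55. They were not counted in the ribosomal protein starts outside windows, so no link between tract and window can be read from this count. Other TOP mRNAs were lower, with a median of 3.16. All 17 were listed and 16 had a 5' window, the exception being SNHG1, a noncoding host gene. EIF3F, an EIF3 subunit gene, reached 7.80 in a short leader window of 153 IP reads and no input read. It was ahead of RACK1 (6.02), EIF3E (5.64), TPT1 (5.53, no input read) and HNRNPA1 (5.39). Ribosomal protein genes have many pseudogene copies, and how reads were assigned to them is not given in the sources used here.

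All 32 initiation factors outside eIF4F were listed, with a median of 4.06, led by EIF3F, EIF3M (5.70), EIF3E, EIF6 (5.61) and EIF2B2 (5.55, no input read). As pooled ratio the group had 4.36, just below the 4.39 of all genes, with a median GC of 61.2% against 68.7%. The 16 stress-response mRNAs with upstream open reading frames were also all listed (median 3.83, pooled ratio 4.43). They were led by AZIN1 (6.16), SLC35A4 (5.82, no input read), IBTK (5.77, no input read), TRIB3 (5.32) and ASNS (5.29). Of the 9 proteins assayed in the series, 8 had 5' windows in their own mRNAs (median 3.57), led by NUDT21 (5.30), GRB2 (5.02), MBNL2 (4.34), RNPS1 (4.29) and RBM10 (4.09), and LGALS3 had none.

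At the low end, 26 of 27 HOX genes were listed at the 5' end with a median of 2.94. Of their 530 windows, with a window shared by neighbouring HOX genes counted for each, 272 were intronic. HOXB9 (5.90), HOXD13 (5.86), HOXA11 (5.33), HOXA10 (4.85) and HOXC10 (4.82, no input read) were highest. Genes named ZNF, which encode zinc finger proteins, had a 5' window in 239 of 342 cases, 69.9% against 90.9% of protein-coding genes, with a median of 3.16 and 3 input reads per window. ZNF12 (6.64), ZNF689 (6.61), ZNF511 (6.54), ZNF778 (5.98) and ZNF174 (5.86) led, each by a window with no input read. HOX, histone and ZNF genes were found by symbol among genes named in any list. RNA abundance was not measured apart from input reads, and its part in these differences was not tested.

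**Figure D5:**
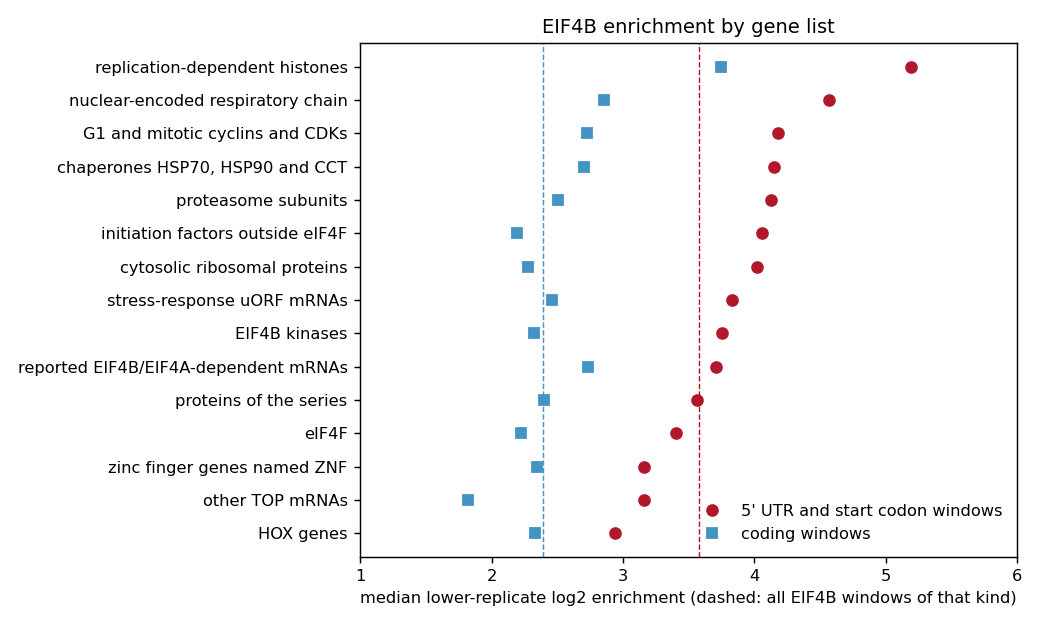
Median lower-replicate log2 enrichment of EIF4B windows in 15 gene lists, for 5' UTR and start codon windows (circles) and coding windows (squares), with dashed lines for all EIF4B windows of that kind, 3.58 and 2.39. Histones are highest at 5.19 and 3.75, and HOX genes lowest at the 5' end, at 2.94.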

How the data were processed

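Per the labels' protocols, HEK293T lysates were sonicated, RNA was cut with RNase I, and libraries were made by eCLIP. Coordinates are in hg38, which the submitters' processing notes name; for aligner, window caller and annotation, nothing is stated. The authors deposited read counts per window, summed over replicates. The deposited log2 enrichments of IP over input were computed by the authors per replicate and given as lower, mean and higher value. The authors' deposited q-values reached 0.1998 in the EIF4B list. The GC fraction of each window is as deposited by the authors and printed as a percentage. Library depth is unknown, since only reads in listed windows are given. The 18 feature types were grouped into 12 classes, with all intron types as 1. RefSeq starts (GRCh38.p14, 250 bases before to 50 after) were matched by symbol and strand. Genes were named by enrichment (windows of at least 20 nt and 5 input reads), by number of windows or IP reads, and, in each of 17 lists, as the highest 5' windows. Within the lists no minimum of length or input reads applied. Members and lists were chosen with earlier results of these data known. The offset estimate was tested on simulated data. Python 3.11.15, numpy 2.4.6, pandas 2.3.3, scipy 1.17.1, matplotlib 3.10.9 and RNAfold 2.7.2 were used. Alternatives were a q ceiling, minima of input reads and length, merged windows, read weights, the higher replicate and pooled ratios. Values of some named genes are not reported here.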

Additional observations from a re-analysis of the deposited data

How the results depend on the processing

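No paired analysis was possible because the deposited reads are sums over replicates, and for the same reason no replicate could be left out. Shares of windows are given in the order 5' UTR, start codon, coding sequence and intron. They were 38.9, 12.8, 26.2 and 10.5% at a q-value of at most 0.05, 25.4, 10.8, 35.2 and 10.2% with at least 10 input reads, 29.7, 9.79, 30.8 and 15.2% with windows of at least 50 nt, 23.8, 15.3, 31.9 and 14.1% with adjoining windows merged, 49.2, 13.8, 14.8 and 5.33% weighted by IP reads, and 53.4, 14.9, 15.5 and 5.79% weighted without mitochondrial windows, a setting added after seeing the data. Coding sequence thus exceeded the 5' UTR with the input minimum, longer windows or merging, and not otherwise. The cause was not tested. The enrichment difference between 5' UTR and coding windows stayed positive under all settings run, from 1.03 to 1.75 on the deposited scale, and was 1.94 with pooled ratios. Median 5' UTR GC was 72.3% with the input minimum and 69.2% after merging. With the input minimum, which leaves 15874 windows, 3897 genes had a window and 2177 a 5' UTR window, so most genes rest on few input reads.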

Other observations

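Noncoding and mitochondrial RNAs took part of the reads. Windows on the mitochondrial chromosome, 102 in all, held 7.98% of IP and 36.8% of input reads, with a median lower-replicate enrichment of 2.55. The large mitochondrial ribosomal RNA MT-RNR2 had 589460 IP and 328095 input reads in 14 windows of its own, and lower-replicate enrichments from 1.63 to 3.85. Among mitochondrial mRNAs the highest was MT-ND5, a complex I subunit, with 16 windows and a maximum of 3.90. The small nucleolar RNA SNORD3A, which acts in ribosomal RNA processing, had 52999 IP and 40324 input reads in 1 window (1.86 and 2.08). For MT-RNR2 and SNORD3A the IP reads were less than 2 times the input reads, while MT-ND5 had 13329 IP and 3113 input reads. Exons of lncRNAs held 3.28% of windows, 4.02% of IP reads and 11.1% of input reads.

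Of 22 snoRNA host genes named in any list, 20 had an EIF4B window, near the 94.2% of protein-coding genes. In 2 a window was annotated as 5' UTR, SNHG3 (3.10 and 4.36) and SNHG4 (2.67 and 3.12). None of the group's windows was in coding sequence. The 2 rest on how these noncoding genes are annotated and do not measure binding at their 5' ends. The nuclear gene H1-4, a linker histone, held 46005 IP and 1386 input reads in 6 windows, of which its single 5' UTR window of 62 nt held 19381 and 338. GNAS held 39699 IP reads, 37406 of them in 9 leader windows, and MIF, a cytokine gene, 30787. The highest MIF window, in coding sequence, had 6.12 and 6.29 but missed the minima of length or input reads used for the strongest windows. Among windows of at least 20 nt with at least 5 input reads, the strongest in introns were in NACA (6.63), NFIA (6.54), HNRNPM (6.30), SLC7A1 (5.58) and GOLGA4 (5.44). Under the same minima the strongest noncoding exons were in EIF4G2 (5.89), RPL34 (5.60), SNHG29 (5.23), STC2 (4.81) and HIRIP3 (4.8), as lower-replicate values. Without the minima, intron windows of FBRSL1 (6.32) and UCKL1 (5.99) also stood high.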
